A study of Rattus norvegicus with 115 samples.

Results

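The genes described are 38 markers of DNA replication and cell division, chosen by symbol, of which 37 were present among the 17455 genes of the count table and Cenpe was not. They comprised 12 genes of S phase (Rrm1, Rrm2, Mcm2, Mcm3, Mcm4, Mcm5, Mcm6, Mcm7, Pcna, Tyms, Tk1 and Cdc6) and 25 genes of G2 and mitosis, called mitotic members here. They were read in RNA of sorted cells from mammary tumours of rats, in libraries of 36 rats, and were set against the treatment of the rat and against the growth of the tumour.

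Tumours had been induced in virgin Sprague Dawley rats with N-nitroso-N-methylurea (NMU), a carcinogen that causes mammary cancers in this animal, at 50 mg/kg in 1 to 3 intraperitoneal injections between 35 and 53 days of age. In an immunotherapy cohort, rats with palpable tumours received vehicle, LY2157299 (an inhibitor of the TGF-beta receptor kinase TGFBR1), an antibody to PD-L1 (a ligand that restrains T cells), or both agents together (the combination). A characterization cohort of tumours received NMU and no treatment. Cells had been sorted into fractions named CD45, Ep and DN in the labels. Column names of the count table give the rat and the tumour but, for all except 13 columns, not the fraction, so libraries were classed by markers in CPM (counts per standard library size, taken here from the column total). A library with Ptprc (which encodes CD45) at or above 300 CPM was called leukocyte, and one with Ptprc below 150 and Epcam (an epithelial adhesion molecule) at or above 300 CPM was called epithelial.

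This gave 44 leukocyte libraries of 31 rats and 61 epithelial libraries of 32 rats, and 2 libraries fell in neither class. The lowest Ptprc level of a leukocyte library was 486 CPM, the highest of an epithelial library was 124 CPM, and the 2 libraries outside both classes held 165 and 7.01 CPM of Ptprc with 19 and 11.9 CPM of Epcam. Of the 13 libraries whose fraction the labels give, the 9 CD45 libraries fell in the leukocyte class and the Ep library in the epithelial class. The 3 DN libraries, whose label names neither class, also fell in the epithelial class. In leukocyte libraries, vehicle was represented by 8 rats, the TGFBR1 inhibitor by 5, anti-PD-L1 by 5, the combination by 6 and untreated tumours by 7. In epithelial libraries these numbers were 7, 4, 7, 6 and 8. Library totals ran from 2353564 to 29727437 counts. In the deposited sample table, untreated tumours carried batch number 1, apart from 1 library, and the immunotherapy cohort numbers 2 and 3, so the cohort and the batch cannot be told apart. What a batch marks is not stated there. In bulk samples of this kind, fewer cells of a type and less RNA per cell cannot be told apart either.

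Cells that divide first copy their DNA in S phase and then part the copies in mitosis, and each step has its own set of genes. Transcription of S phase genes such as those of the MCM helicase is driven by E2F factors, while mitotic genes are held down by the DREAM complex in resting cells and switched on later by B-MYB and FOXM1 through a promoter element called the CHR, often near CCAAT boxes bound by NF-Y. In tumours these genes serve as markers of proliferation, both in the malignant epithelium and in lymphocytes and macrophages that expand within it.

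The promoter letters of the members differed by set. Promoters were taken from RefSeq in build GRCr8, from 250 bases before to 50 bases after the start site, and 30 of the 38 members had one. The CHR core TTTGAA, searched on both strands, was present in 14 of 21 mitotic promoters (66.7%) and in 1 of 9 S phase promoters, that of Mcm2, against 18.3% of all 33469 promoters. CCAAT on either strand was found in 17 of 21 mitotic and 6 of 9 S phase promoters, against 37.5% of all. The E2F letters TTTGGCGC or TTTCCCGC on either strand were found in 5 of 9 S phase promoters (Mcm3, Mcm5, Mcm6, Mcm7 and Tyms) and in 0 of 21 mitotic promoters, against 1.45% of all. A match is a description of the letters and not of a bound factor.

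The 250 bases before the start site are printed for the members to which the results below return, with each of these motifs in capitals. The mitotic genes are Ccnb2 (cyclin B2, chr8:79981659-79981908, minus strand), Cdk1 (the kinase that B cyclins activate, chr20:19265043-19265292, plus strand), Birc5 (survivin, a subunit of the chromosomal passenger complex, chr10:103571896-103572145, plus strand) and Mki67 (the proliferation antigen Ki-67, chr1:199952594-199952843, minus strand).
Ccnb2: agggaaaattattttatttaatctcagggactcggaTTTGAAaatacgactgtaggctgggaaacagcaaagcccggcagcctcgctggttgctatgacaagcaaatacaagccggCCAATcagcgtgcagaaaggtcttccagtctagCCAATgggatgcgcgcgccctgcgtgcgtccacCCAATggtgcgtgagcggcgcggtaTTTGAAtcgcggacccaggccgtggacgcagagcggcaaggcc
Cdk1: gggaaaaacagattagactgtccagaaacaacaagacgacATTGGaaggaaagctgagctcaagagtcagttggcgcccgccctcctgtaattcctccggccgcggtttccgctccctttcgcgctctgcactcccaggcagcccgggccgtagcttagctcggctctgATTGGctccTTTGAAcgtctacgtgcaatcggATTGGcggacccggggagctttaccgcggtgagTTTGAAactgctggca
Birc5: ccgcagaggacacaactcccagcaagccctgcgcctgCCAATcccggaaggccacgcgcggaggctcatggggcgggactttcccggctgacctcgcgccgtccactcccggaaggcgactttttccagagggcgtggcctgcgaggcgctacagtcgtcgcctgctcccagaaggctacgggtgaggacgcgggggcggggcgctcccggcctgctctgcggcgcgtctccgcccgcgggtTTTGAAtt
Mki67: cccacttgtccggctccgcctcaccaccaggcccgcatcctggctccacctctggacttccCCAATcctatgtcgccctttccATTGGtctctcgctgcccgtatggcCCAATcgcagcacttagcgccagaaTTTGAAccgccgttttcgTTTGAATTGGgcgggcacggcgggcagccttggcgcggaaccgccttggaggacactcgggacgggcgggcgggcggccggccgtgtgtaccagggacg
The S phase genes are Mcm5 and Mcm6 (subunits of the replicative helicase, chr19:13488563-13488812, plus strand, and chr13:42404353-42404602, minus strand) and Pcna (the sliding clamp that tethers polymerases to DNA and also serves DNA repair, chr3:139955821-139956070, minus strand).
Mcm5: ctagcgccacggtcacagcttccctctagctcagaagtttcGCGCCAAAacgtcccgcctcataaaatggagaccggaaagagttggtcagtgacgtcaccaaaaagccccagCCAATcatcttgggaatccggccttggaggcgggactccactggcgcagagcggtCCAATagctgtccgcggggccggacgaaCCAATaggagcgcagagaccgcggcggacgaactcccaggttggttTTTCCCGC
Mcm6: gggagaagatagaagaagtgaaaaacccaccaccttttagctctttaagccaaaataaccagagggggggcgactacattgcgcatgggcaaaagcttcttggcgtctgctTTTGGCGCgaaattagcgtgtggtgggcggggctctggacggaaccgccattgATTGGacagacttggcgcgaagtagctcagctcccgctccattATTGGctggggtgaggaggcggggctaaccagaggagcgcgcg
Pcna: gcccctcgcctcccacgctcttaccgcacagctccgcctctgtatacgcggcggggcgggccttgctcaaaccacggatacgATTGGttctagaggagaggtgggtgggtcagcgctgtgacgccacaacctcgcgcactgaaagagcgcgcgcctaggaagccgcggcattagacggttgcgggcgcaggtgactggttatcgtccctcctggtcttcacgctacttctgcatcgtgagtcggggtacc
The 3 CCAAT boxes of Ccnb2 begin between 134 and 68 bases before the start, and its nearer TTTGAA begins 43 bases before it. In Mki67 one TTTGAA overlaps a CCAAT box read on the other strand. Mcm5 and Mcm6 carry E2F letters and no TTTGAA, whereas the Pcna window holds a single CCAAT on the minus strand and neither of the other motifs.

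Most members had a higher median CPM in leukocyte than in epithelial libraries. The median CPM over libraries was higher in leukocytes for 33 of 37 members, 10 of 12 S phase and 23 of 25 mitotic, with a median ratio of 1.27 and 1.44. Since the classes were cut on the same libraries, these ratios are a description with no test. The share of all genes that were higher in leukocytes was not computed, so the counts of members have no background. Rats with several libraries count more than once. Pcna stood furthest apart, at a median of 381 CPM in leukocyte and 126 CPM in epithelial libraries. Aurkb, the kinase of the chromosomal passenger complex, had 34.8 and 11.6 CPM, and Rrm2, the regulated subunit of ribonucleotide reductase, had 24.1 and 9.42 CPM. Mki67 had 56.3 CPM in leukocyte and 24.4 CPM in epithelial libraries. The order was the other way for Mcm7, another helicase subunit (79.6 and 111.5 CPM), Tyms, the thymidylate synthase (10.5 and 12.5 CPM), and Ttk, a spindle checkpoint kinase (5.26 and 6.56 CPM). Cdc20, which activates the anaphase-promoting complex, was level at 24.5 and 24.6 CPM.

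The 13 libraries with a known fraction allowed a test of this contrast that did not use the marker classes. They were 9 CD45 libraries against 3 DN libraries and 1 Ep library, from 12 rats of which 1 gave both, fitted with treatment as a term. Anti-PD-L1 was represented only by the DN library of rat P38, and the TGFBR1 inhibitor only by CD45 libraries of rats P16 and P19. With treatment in the fit, the libraries of these rats do not inform the difference between fractions. On the side of DN and Ep it therefore rests on the DN libraries of P10 and P23 and the Ep library of C9. Of 37 members, 3 were higher in CD45 (edgeR quasi-likelihood test, Benjamini-Hochberg adjusted p under 0.05) and 0 were lower, against 9.08% of all 14392 genes tested called higher and 14.5% called lower. The share called higher was near its background. DESeq2 also called 3 members, beside 31.1% of all genes. The all-gene median of this contrast was -0.25 on the log2 scale, and -0.38 with RLE scaling in place of TMM, so member values are read against it: the S phase median was 0.55 and the mitotic median 0.53.

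Pcna ran from 150 to 575 CPM with a median of 303 in the CD45 libraries, and was 93.4, 115, 127 and 129 CPM in the others. The groups did not overlap, and the log2 difference was 1.45 ± 0.345 (SE; edgeR adjusted p = 0.0116). Mcm3, a helicase subunit, ran from 58.3 to 167 CPM with a median of 79.5 in CD45, and was 33.2, 39.2, 39.9 and 52.2 CPM in the others, again without overlap (0.96 ± 0.303, edgeR adjusted p = 0.0408). Kif11, the motor that pushes spindle poles apart, ran from 10.6 to 48.4 CPM with a median of 21.7, against 1.47, 4.58, 7.23 and 21.6 CPM (1.38 ± 0.384, edgeR adjusted p = 0.0242). Its groups overlapped, because the Ep library of rat C9 held 21.6 CPM. The share of all genes without overlap is not given here, so the lack of overlap for Pcna and Mcm3 is a description. These ranges include the libraries of P16, P19 and P38, which do not inform the fitted difference. Mki67 did not pass (1.27 ± 0.599, edgeR adjusted p = 0.148), nor did Rrm2 (0.89 ± 0.777), Top2a (0.82 ± 0.704), which untangles DNA strands, Ccnb1 (0.34 ± 0.839), Mcm2 (-0.01 ± 0.323) or Cdc20 (-0.01 ± 0.536).

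These calls were sensitive to single rats. Without rat P23, which holds both fractions, 0 members were called, without P10 or without P31 1 was, and without C9 4 were. Without P10, the mitotic median turned to -0.30. With the batch as a covariate only Mcm3 remained called.

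**Figure D1:**
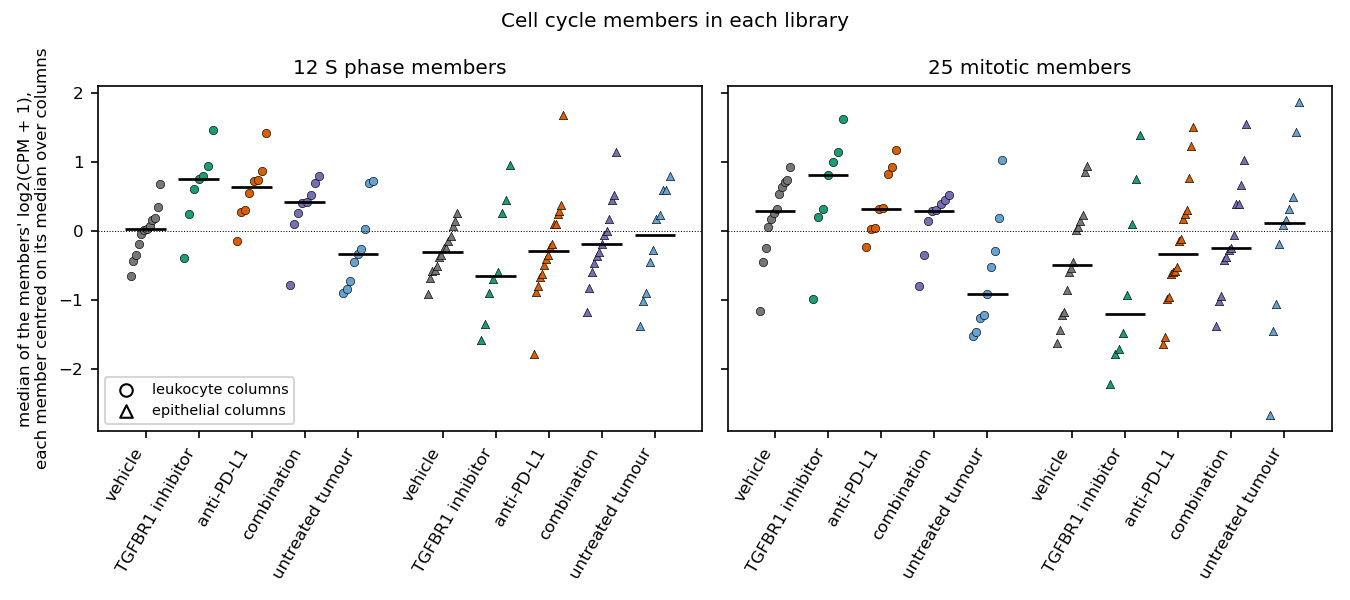
Median of the S phase members and median of the mitotic members (panels) in each library (y axes), in log2(CPM + 1) after centring each member on its median over all tumour libraries. Each point is 1 library, split by class and by treatment; mitotic medians reach from -2.68 to 1.88 in epithelial libraries and from -1.52 to 1.63 in leukocyte libraries.

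These genes had a wider range over the 61 epithelial libraries than over the 44 leukocyte libraries, and a range grows with the number of libraries. With log2(CPM + 1) of each member centred on its median over tumour libraries, the median of the mitotic members ran from -2.68 to 1.88 over 61 epithelial libraries and from -1.52 to 1.63 over 44 leukocyte libraries, as the plot of library medians shows. The corresponding range for S phase members was from -1.79 to 1.69 and from -0.89 to 1.46. The lowest mitotic median was that of an epithelial library of rat C10 with 11 members at 0. For mitotic members, 17 pairs of epithelial libraries from the same tumour differed by a median of 0.58 and at most 1.00, while 26 pairs from separate tumours of the same rat differed by a median of 0.93 and up to 3.01, and pairs from different rats by a median of 1.03. Libraries of a tumour can be different sorted fractions, and pairs of the same rat share its treatment.

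Members without a single count were seen mainly in batch 1. There, 3.30% of the members' values in leukocyte libraries and 6.61% in epithelial libraries were 0, against 0 and 0.624% in batches 2 and 3. An epithelial library of rat C10 had 11 of 37 members at 0 with 17500712 counts in all, which allows each of those genes up to 0.171 CPM by counting error. The epithelial library of rat P21, treated with the TGFBR1 inhibitor, had 9 members at 0, Mki67 among them, at a limit of 0.3 CPM. Counts are not independent molecules after amplification, so these limits cover counting error only.

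In the untreated tumours the leukocyte medians lay lowest, at -0.33 for S phase and -0.91 for mitotic members, against 0.03 and 0.29 in vehicle libraries. The epithelial medians of untreated tumours were -0.05 and 0.13, against -0.30 and -0.49 in vehicle libraries, so the order of the cohorts was opposite in the classes. No test was made, since cohort and batch cannot be told apart.

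In the immunotherapy cohort, leukocyte libraries came from 24 rats and epithelial libraries from 24, of which 20 gave both. Across the rats of each class members varied together, with 1 exception. The median pairwise Pearson r in leukocytes was 0.642 among S phase members, 0.746 among mitotic members and 0.611 between the sets, and in epithelial libraries it was 0.634, 0.826 and 0.525. These correlations are descriptions, since the values share libraries, treatment and depth. Pcna went against the others in leukocytes, where its median r with the mitotic members was -0.301 and above 0 for 4 of 25, while in epithelial libraries it was 0.384 and above 0 for 25 of 25. With Mki67 alone the leukocyte r of Pcna was -0.392, and it was 0.236 without rats P21 and P7, so the r with Mki67 rests on those rats. It was -0.531 within batch 2, which holds both of them, and 0.197 within batch 3. The median r with the mitotic members was not computed without them. No other member had a negative median in either class. The next lowest was 0.459 in leukocytes, for Kif20a, a motor of late mitosis, and the lowest in epithelial libraries was 0.249, for Mcm6.

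**Figure D2:**
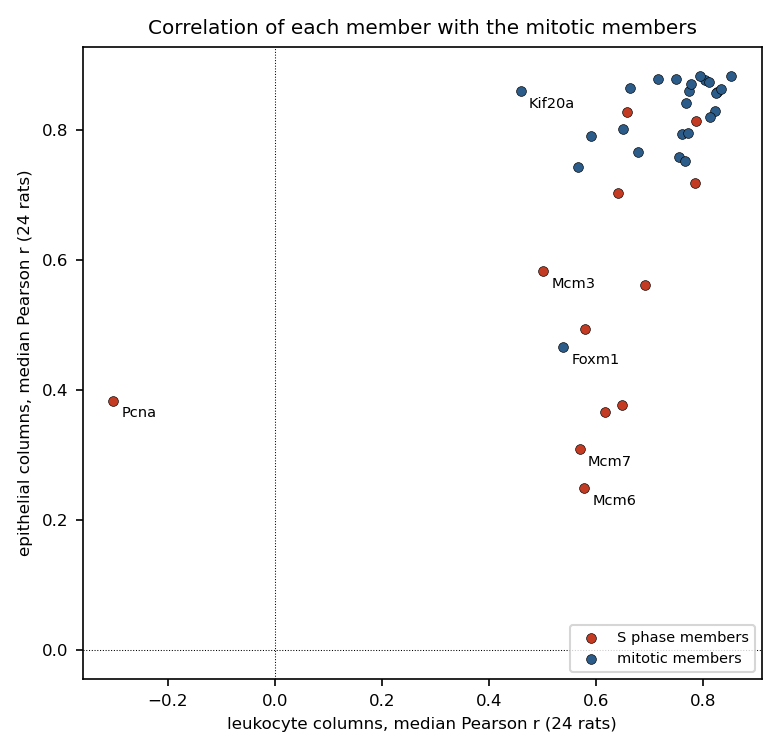
Median Pearson r of each member with the mitotic members over rats, in leukocyte libraries (x axis, 24 rats) and epithelial libraries (y axis, 24 rats), coloured by set. Pcna lies alone to the left of 0, at -0.301 in leukocytes and 0.384 in epithelial libraries.

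To ask whether treatment changed these genes, counts were summed per rat within a class and each treatment was compared with vehicle. In all 6 comparisons 0 of 37 members were called by the edgeR quasi-likelihood test, and the background was 0% of all genes in each. At an unadjusted edgeR p under 0.05, leukocyte libraries gave 5 members for the TGFBR1 inhibitor, 1 for anti-PD-L1 and 4 for the combination, against 17.1%, 11.8% and 15.7% of the 11932 genes tested. The 5 and the 1 were higher than vehicle, beside 8.64% and 5.46% of all genes, and the 4 were lower, beside 7.89%. DESeq2 called 0, 0 and 1 members, beside 3.63%, 1.27% and 2.81% of all genes, and the 1 was Birc5. Limma voom on single libraries, with the rat as a block, called 0 in each, beside 0%, 0.017% and 2.35%. The 3 comparisons share the vehicle rats.

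**Figure D3:**
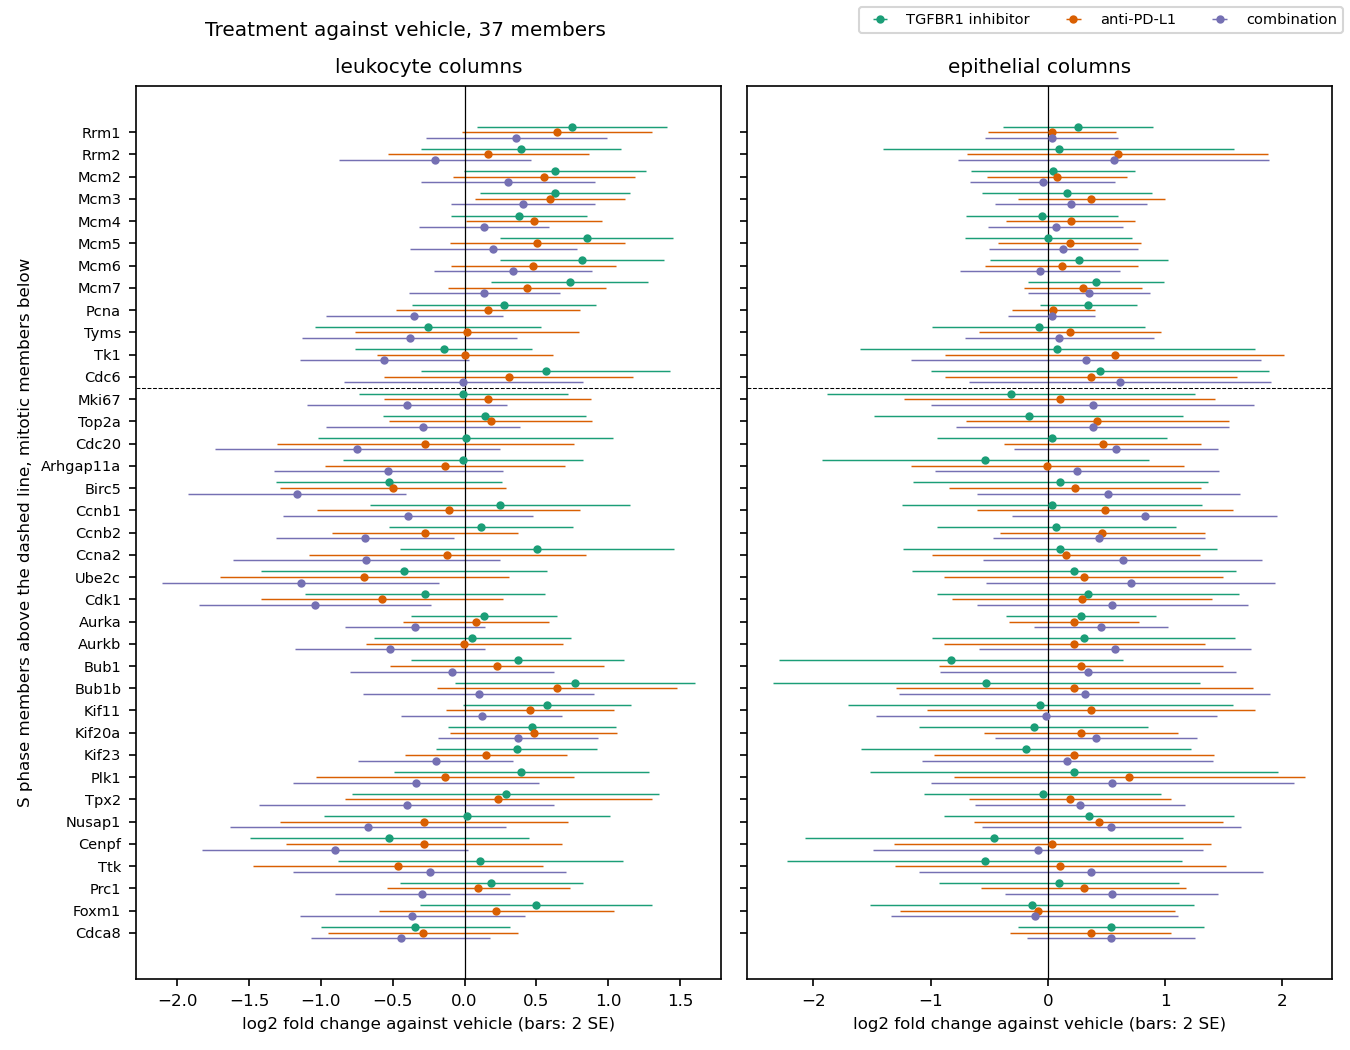
Log2 fold change against vehicle of each of the 37 members (rows), in leukocyte and epithelial libraries (panels) and for each treatment (colours), with bars of 2 SE from edgeR. In leukocytes the S phase members lie mostly above 0 with the TGFBR1 inhibitor and anti-PD-L1 and the mitotic members mostly below 0 with the combination, and no member was called.

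With the TGFBR1 inhibitor, the members with the smallest p in leukocytes were helicase subunits. Mcm6 ran from 52.4 to 88.1 CPM with a median of 67.4 in 8 vehicle rats, and was 63.1, 65.9, 110, 123 and 228 CPM in 5 treated rats. The highest 3 treated rats lay above every vehicle rat and the other 2 within their range (log2 difference 0.82 ± 0.286, edgeR p = 0.00873, adjusted 0.174). The values of Mcm5 were 34.6, 55.9, 71.2, 76.8 and 188 CPM, against 26.6 to 91.1 with a median of 41.2 in vehicle rats (0.85 ± 0.301, edgeR p = 0.0093, adjusted 0.176). The highest value of both genes belonged to rat P16. Mcm7 (0.73 ± 0.273), Mcm3 (0.63 ± 0.260) and Rrm1, the large subunit of ribonucleotide reductase (0.75 ± 0.330), were the other members with an unadjusted p under 0.05, and Mcm2 was at 0.63 ± 0.316.

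The S phase members had a median log2 difference of 0.60 with 10 of 12 above 0, and the mitotic members 0.13 with 18 of 25 above 0, where the median of all genes was 0.00. Of the mitotic members, Mki67 was at -0.01 (interval of 2 SE from -0.73 to 0.72), Top2a at 0.14, Ccnb1 at 0.25 and Cdc20 at 0.01. Rrm2 was at 0.39 and Pcna at 0.27. Without rat P16, 0 members had an unadjusted p under 0.05, the S phase median was 0.31 and the mitotic median -0.17. Without rat P21, 11 did. Without the vehicle rat P7, the mitotic median was -0.03.

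With anti-PD-L1, Mcm3 ran from 48.4 to 95 CPM with a median of 63.2 in vehicle rats and was 68.5, 77.6, 77.7, 110 and 172 CPM in treated rats. The groups overlapped (0.60 ± 0.261, edgeR p = 0.0311, adjusted 0.392). All 12 S phase members were above 0 with a median of 0.46, whereas 11 of 25 mitotic members were, with a median of -0.11, and the median of all genes was -0.02. With RLE scaling 10 of 12 S phase members were above 0. Mki67 was at 0.16 (interval from -0.56 to 0.88), Mcm2 at 0.55 and Rrm2 at 0.16.

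With the combination, the members with the smallest p in leukocytes were mitotic genes, and none passed the edgeR threshold. Birc5 ran from 8.11 to 75.4 CPM with a median of 25.7 in vehicle rats and from 7.60 to 18.1 CPM with a median of 14.5 in 6 treated rats. Of the vehicle rats only P7 lay within the treated range, at 8.11 CPM. The log2 difference was -1.17 ± 0.379 (edgeR p = 0.00506, adjusted 0.167), and DESeq2 called it (-1.20, adjusted p = 0.0498) beside 2.81% of all genes. Leaving out single rats moved it between -1.32 and -0.81.

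Cdk1 ran from 5.97 to 72.9 CPM with a median of 30.9 in vehicle and from 11.3 to 23.2 CPM with a median of 15 in treated rats (-1.04 ± 0.404, edgeR p = 0.0165). Ube2c, which supplies ubiquitin to the anaphase-promoting complex, had medians of 47.1 and 22.2 CPM (-1.14 ± 0.481, edgeR p = 0.0261), and Ccnb2 9.83 and 5.28 CPM (-0.69 ± 0.310, edgeR p = 0.0351). For each of these genes P7 was the lowest vehicle rat and P4 the highest, and the groups overlapped. The mitotic median was -0.40 with 3 of 25 above 0, the S phase median was 0.14 with 7 of 12 above 0, and the median of all genes was 0.01. Cdc20 was at -0.75 ± 0.496, Mki67 at -0.40 (interval from -1.10 to 0.29), Ccnb1 at -0.39, Top2a at -0.29, Pcna at -0.35, Rrm2 at -0.21 and Mcm2 at 0.30. Without rat P4, 1 member had an unadjusted p under 0.05 and the mitotic median was -0.29, and without P7 12 members did and it was -0.59.

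**Figure D4:**
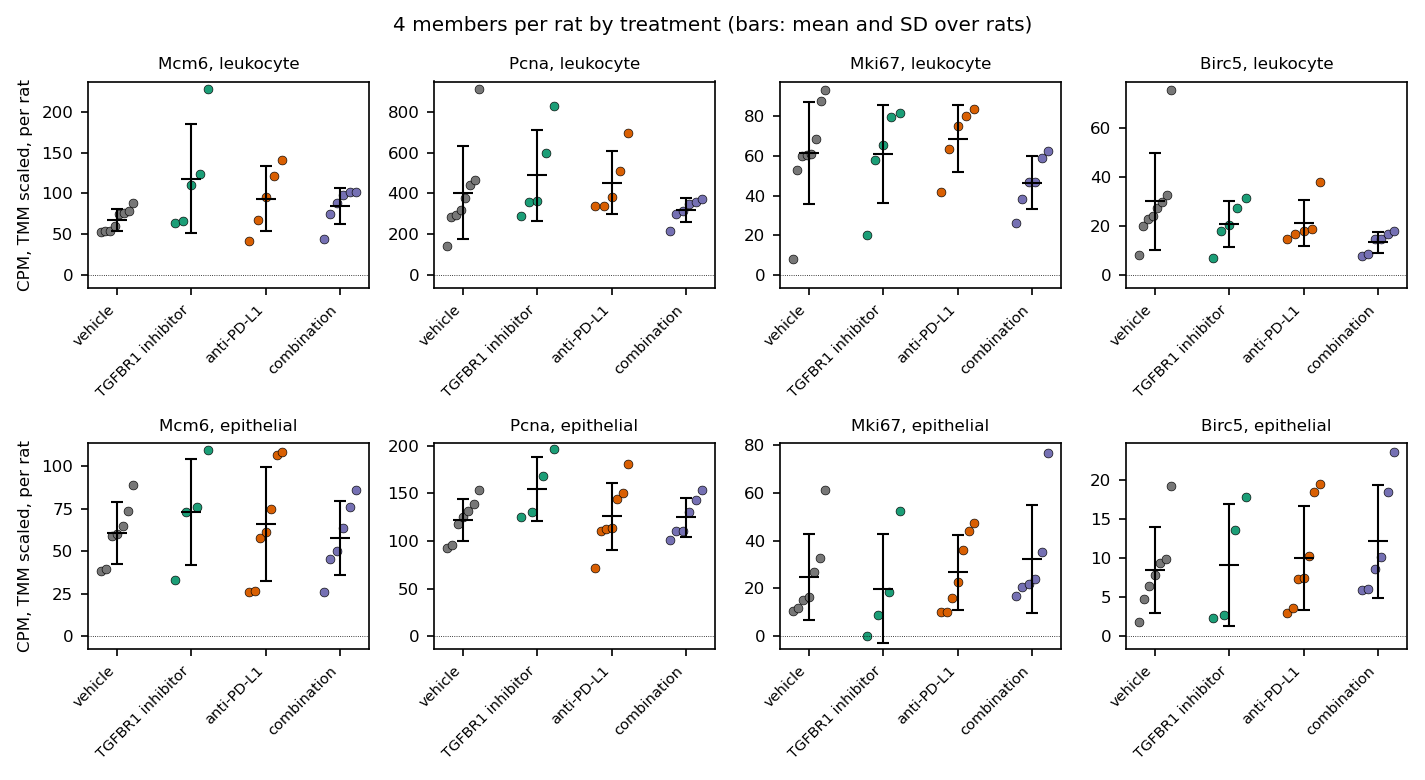
CPM (TMM-scaled) of Mcm6, Pcna, Mki67 and Birc5 per rat (points) by treatment, in leukocyte and epithelial libraries, with the mean and SD of each group. Vehicle rat P7 is low in leukocyte Mki67 (8.11 CPM) and high in leukocyte Pcna (912 CPM), and the combination rats lie between 7.60 and 18.1 CPM of leukocyte Birc5.

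Marker genes of the cell types in leukocyte libraries were summed for each treatment. The summed CPM of 8 macrophage and monocyte markers had a median of 9313 (range 2395 to 24010) in vehicle, 1597 (705.6 to 4807) with the TGFBR1 inhibitor, 1728 (171.6 to 3995) with anti-PD-L1 and 917 (585 to 7842) with the combination. The 10 T and NK cell markers had medians of 3791, 4422, 4370 and 4571 CPM. All markers of both lists were detected in every group, and their part in the members' values was not tested.

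In epithelial libraries 0 of 37 members had an unadjusted edgeR p under 0.05 in any of the 3 comparisons, where all genes gave 6.24% for the TGFBR1 inhibitor, 2.7% for anti-PD-L1 and 5.52% for the combination. DESeq2 called 0 members in each, beside 0.0881%, 0% and 0.0147% of all genes, and limma voom 0, beside 0% in each. Mki67 ran from 10.4 to 61.2 CPM with a median of 16.3 in 7 vehicle rats, and was 0, 9.07, 18.3 and 52.3 CPM with the TGFBR1 inhibitor. It ran from 10.3 to 47.3 CPM with a median of 22.8 with anti-PD-L1, and from 16.8 to 76.7 CPM with a median of 22.8 with the combination. All groups overlapped, and intervals of 2 SE were wide, from -1.89 to 1.25, from -1.22 to 1.43 and from -0.99 to 1.76. The make-up of these libraries differed by group. Summed CPM of 8 stromal and endothelial markers had a median of 3004 (range 28.8 to 28710) in vehicle. It was 413 (62.5 to 30010) with the TGFBR1 inhibitor, 514 (21.7 to 40700) with anti-PD-L1 and 505 (24.7 to 9215) with the combination. The part of these cells in the members' values was not tested.

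The mitotic medians were 0.03 (13 of 25 above 0), 0.28 (23 of 25) and 0.44 (22 of 25) for the 3 treatments in that order, and the S phase medians 0.13, 0.19 and 0.12, beside all-gene medians of -0.03, 0.00 and -0.02. With the TGFBR1 inhibitor the sign of the mitotic median was not stable: it was -0.08 with RLE scaling and with DESeq2, -0.19 with limma voom and -0.59 without rat P22. Cdca8, a subunit of the chromosomal passenger complex, had the highest value there (0.54) and Bub1, a spindle checkpoint kinase, the lowest (-0.83). With anti-PD-L1 the values ran from -0.09 for Foxm1, a mitotic transcription factor, to 0.70 for Plk1, a mitotic kinase. The mitotic median with anti-PD-L1 was -0.01 with 12 of 25 above 0 without rat P28, and the same with stricter marker limits for the classes. Without rat P26 the S phase median with anti-PD-L1 was 0.00 with 6 of 12 above 0. With the combination the mitotic median stayed between 0.27 and 0.63 over the rats left out. Cyclin B1 (Ccnb1) had the highest value with the combination (0.82 ± 0.566), beside Cdc20 at 0.58, Rrm2 at 0.56, Top2a at 0.38, Pcna at 0.03 and Mcm2 at -0.05.

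The effect of treatment was then compared between the classes in 1 fit of 48 sums from 28 rats. Of these, 20 rats supplied both classes, and the rat was not a term of the edgeR fit, which treats the sums as independent. The difference (leukocyte minus epithelial) was called for 0 of 37 members in each treatment, beside 0% of all genes. At an unadjusted edgeR p under 0.05 there were 0 members for the TGFBR1 inhibitor, 0 for anti-PD-L1 and 6 for the combination, all lower in leukocytes, beside 7.64% of all genes. For the combination the mitotic median of the difference was -0.83 with 1 of 25 above 0, and the S phase median was -0.09. Birc5 had the smallest p (-1.71, edgeR p = 0.017, adjusted 0.294). Limma voom with the rat as a block also called 0 members in each treatment, beside 0%, 0.00717% and 0.179% of all genes, and had Birc5 at -1.63 (p = 0.00816, adjusted 0.177).

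The deposited sample table records each tumour of the immunotherapy cohort as growing or stable, by a rule that it does not state. In leukocytes, 19 sums of growing tumours were compared with 7 of stable ones, with treatment as a term, and 2 rats gave both. Called members were 0 of 37, beside 0% of all genes, and 1 had an unadjusted edgeR p under 0.05, beside 13.8% of all genes and 6.15% counted as higher in stable tumours. That member was Pcna. DESeq2 called it alone of the 37, beside 2.56% of all genes, and limma voom called 0 members, beside 0%.

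Pcna ran from 148 to 504 CPM with a median of 322 in growing tumours. In stable tumours it was 259, 363, 369, 608, 717, 788 and 900 CPM. The highest 4, of rats P17, P28, P21 and P7, lay above every growing tumour sum, and the other 3 lay within the growing range. Rats P24 and P31 gave both classes and went opposite ways. P24 held 259 CPM in its stable and 383 CPM in its growing sum, and P31 held 369 and 295 CPM. The log2 difference, stable minus growing, was 0.74 ± 0.206 (edgeR p = 0.00137, adjusted 0.139; DESeq2 0.77, adjusted p = 0.0233). It ran from 0.57 without P7 to 0.91 without P24, and it passed the edgeR threshold only without P36 (adjusted p = 0.0444, beside 267 of all genes called).

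Most other members lay below 0. The S phase median was -0.22 with 2 of 12 above 0 and the mitotic median -0.36 with 3 of 25 above 0, where all genes had -0.04. Mki67 had medians of 58.6 CPM in stable and 62.4 CPM in growing tumours (-0.45 ± 0.299), and ran from 8 to 82.1 CPM and from 26 to 91.6 CPM. Cdc20 was at -0.59, Top2a at -0.42, Ccnb1 at -0.38, Rrm2 at -0.35 and Mcm2 at -0.22. Without P7 or without P21 the mitotic median was -0.07 or -0.12. Macrophage markers summed to a median of 1052 CPM in stable and 3743 CPM in growing leukocyte libraries, and T and NK cell markers to 5085 and 3872 CPM, and their part in the Pcna difference was not tested.

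In epithelial libraries 10 stable sums were compared with 17 growing ones, and 3 rats gave both. Called members were 0 of 37 and 0 had an unadjusted edgeR p under 0.05, beside 0% and 5.58% of all genes, while DESeq2 and limma voom called 0, beside 0.0523% and 0.015%. Mki67 ran from 0 to 45 CPM with a median of 13.5 in stable and from 9.86 to 73.6 CPM with a median of 22 in growing tumours, with overlap (-0.87 ± 0.502, edgeR p = 0.0948, interval from -1.87 to 0.13). Foxm1 was at -0.74 ± 0.406. Of the mitotic members 1 of 25 was above 0, with a median of -0.22, while 8 of 12 S phase members were, with a median of 0.09 and with Mcm6 at 0.44 ± 0.259 and Pcna at 0.21 ± 0.132. Without P28 the mitotic median was -0.58, and without P21 it was -0.10. Rrm2 was at -0.40, Top2a at -0.25, Ccnb1 at -0.22, Cdc20 at -0.11 and Mcm2 at 0.06.

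The same table gives each tumour a growth rate, in a unit it does not state, which was averaged per rat and used as a continuous term. Slopes are given per SD of the growth rate (6.24 in leukocyte and 3.11 in epithelial rats, 24 rats each). In leukocytes 0 of 37 members were called, beside 0% of all genes, and 16 had an unadjusted edgeR p under 0.05, beside 11.6% of all genes. Of these 15 had a positive slope, beside 3.98% of all genes, and Pcna had a negative one, beside 7.66%. DESeq2 called 0, beside 1.33% of all genes.

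Slopes were above 0 for 25 of 25 mitotic members (median 0.30) and for 11 of 12 S phase members (median 0.21), all except Pcna, with an all-gene median of -0.04. Bub1b, a spindle checkpoint kinase, had the steepest slope (0.43 ± 0.136, edgeR p = 0.00444, adjusted 0.285), next to Mcm5 (0.31 ± 0.103), Ccnb2 (0.31 ± 0.108) and Plk1 (0.41 ± 0.142). Cdc20 was at 0.40, Ccnb1 at 0.39, Top2a at 0.28, Rrm2 at 0.26, Mcm2 at 0.22 and Mki67 at 0.21 ± 0.152. The rate of rat P16 was 30, far above the next rat at 12.9. Without P16, 2 members had an unadjusted p under 0.05, the S phase median was 0.07 and the mitotic median 0.48. The count was 5 without P21 and 9 without P7, and it rose to 28 without P19 and to 23 without P28. The batch as a covariate left 7, and median slopes of 0.17 and 0.20.

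Pcna had the opposite slope (-0.26 ± 0.108, edgeR p = 0.0234, adjusted 0.366). On the ranks of the growth rate, the fit called it alone of the 37 (-0.40 ± 0.0931, edgeR adjusted p = 0.0462), beside 0.535% of all genes, 68 in number with 66 of them lower. The 4 slowest rats, P7, P28, P21 and P17, with rates of 0.0246, 0.107, 0.242 and 1.29, held the 4 highest Pcna levels, 807, 692.5, 792.5 and 583 CPM by column total. The other 20 rats held from 163 to 552 CPM. Among the slow rats, leukocyte Mki67 was lowest in P7 (7.17 CPM) and P21 (19.5 CPM) and stood at 79.3 CPM in P28 and 56.3 CPM in P17.

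In epithelial libraries 0 of 37 members were called, beside 0% of all genes, and 6 had an unadjusted edgeR p under 0.05, all with a positive slope, beside 9.28% of all genes and 4.29% with a positive slope. DESeq2 called 0, beside 0.758%, and the fit on ranks called 0, beside 0%. The 6 were the mitotic members Foxm1 (0.56 ± 0.207), Mki67 (0.62 ± 0.231, edgeR p = 0.0129, adjusted 0.418), Cdk1 (0.46 ± 0.184), Cenpf, a kinetochore protein (0.58 ± 0.235), Ube2c (0.49 ± 0.217) and Top2a (0.46 ± 0.210). All 25 mitotic members were above 0 with a median of 0.31, whereas 6 of 12 S phase members were with a median of 0.00, beside an all-gene median of 0.01. Mcm6 (-0.19), Mcm2 (-0.09) and Pcna (-0.02) were below 0, and Rrm2 (0.31), Ccnb1 (0.29) and Cdc20 (0.15) above. Without rat P4 the count at an unadjusted p under 0.05 was 2, without P22 3 and without P28 15. Without P22, 21 of 25 mitotic and 4 of 12 S phase members were above 0, with medians of 0.18 and -0.11. The difference between the sets was not tested.

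**Figure D5:**
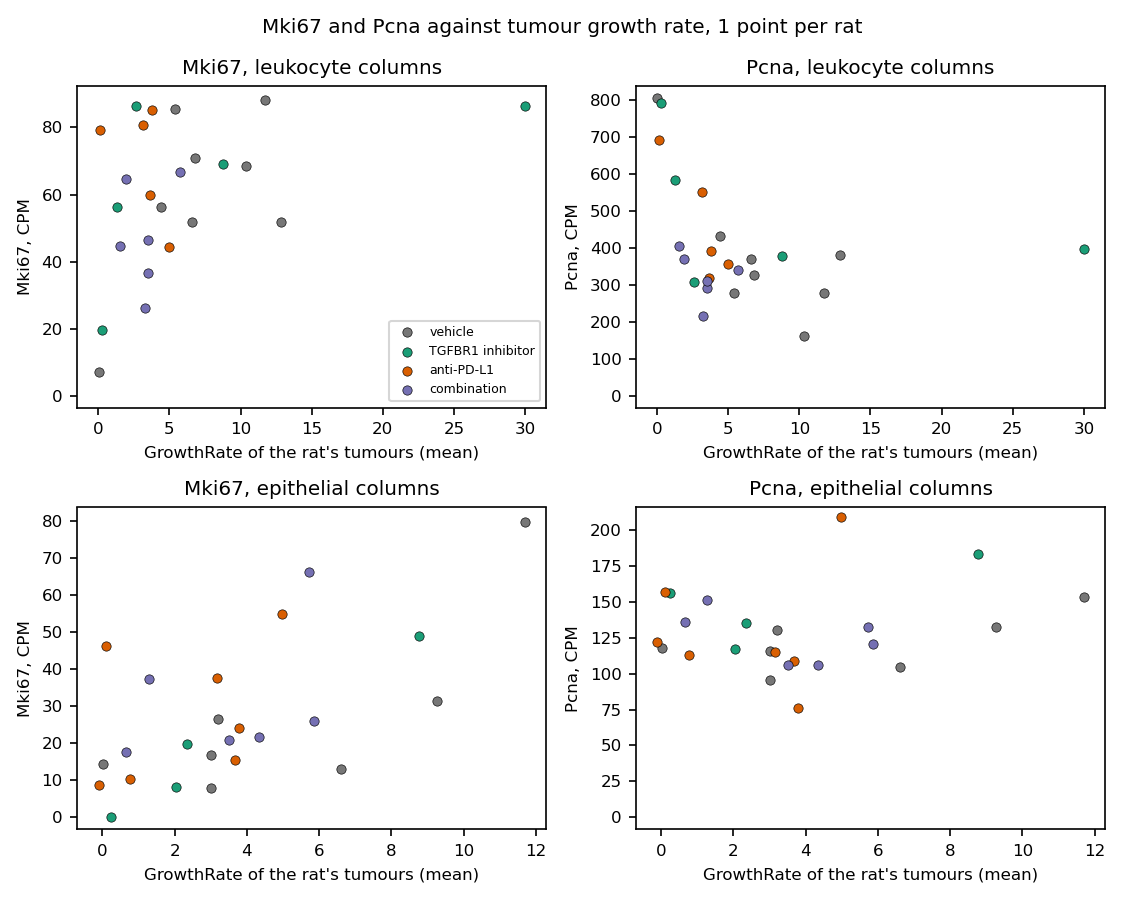
CPM by column total of Mki67 and Pcna (y axes) against the growth rate of the deposited sample table (x axis, unit not stated) for each of 24 rats per class, coloured by treatment. Leukocyte Pcna is highest in the 4 slowest rats (583 to 807 CPM), and rat P16 lies alone at a rate of 30.

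Relations between single genes and growth were also computed over rats, 7 in all, with permutation p-values (100000 resamples, 2-sided) and Benjamini-Hochberg adjustment. Epithelial Mki67 and the growth rate had a Pearson r of 0.536 (permutation p = 0.0088, adjusted 0.0616) and a Spearman rho of 0.527 (p = 0.00952, adjusted 0.0574) over 24 rats, and r was 0.443 without rats P4 and P5. Within batches 2 and 3, r was 0.479 and 0.363. Leukocyte Mki67 had an r of 0.370 (permutation p = 0.0647, adjusted 0.113) and a rho of 0.399 (p = 0.0538, adjusted 0.0754), with 0.461 without P16 and P5, and 0.373 and 0.0876 within batches. None of the 7 passed the adjusted threshold.

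Leukocyte Pcna had an r of -0.296 (permutation p = 0.165, adjusted 0.231) and a rho of -0.476 (p = 0.0191, adjusted 0.0574), and r was -0.674 without P16 and P5 and -0.314 and -0.215 within batches 2 and 3. In epithelial libraries its r was 0.147 (permutation p = 0.492, adjusted 0.492) and its rho -0.0909 (p = 0.67, adjusted 0.67). Mki67 and Pcna of the same rat had an r of -0.392 in leukocytes (permutation p = 0.0621, adjusted 0.113; rho -0.197, p = 0.353, adjusted 0.412), which was 0.236 without rats P21 and P7 and so rests on them. Within batches 2 and 3 it was -0.531 and 0.197. In epithelial libraries that r was 0.227 (permutation p = 0.277, adjusted 0.324) and rho 0.441 (p = 0.0328, adjusted 0.0574). Mki67 in leukocyte and epithelial libraries of the same rat had an r of 0.507 over 20 rats (permutation p = 0.0445, adjusted 0.113; rho 0.499, p = 0.0271, adjusted 0.0574), with 0.297 without P21 and P7, 0.592 within batch 2 and -0.0188 within batch 3.

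Other cell cycle genes were read from 4 lists: 14 genes of G1 cyclins, kinases and E2F factors, 15 inhibitors and RB family genes, 31 further replication genes and 40 further genes of G2 and mitosis. In the treatment and growth comparisons 0 of each list were called. In leukocytes of stable tumours, the genes with the smallest p lay beside Pcna: Slbp, which binds histone mRNA (0.98 ± 0.229, edgeR p = 0.000229, adjusted 0.122), Gadd45a, a stress-induced growth arrest gene (1.24 ± 0.321), and Cdkn1c, an inhibitor of cyclin-dependent kinases (1.40 ± 0.388), were higher in stable tumours without passing. Gins1, a subunit of the replicative helicase complex (-1.0 ± 0.338), and Cdk4, the partner of D cyclins (-0.44 ± 0.154), were lower without passing. Along the growth rate these genes had slopes of -0.39 for Slbp, -0.59 for Gadd45a, -0.72 for Cdkn1c and 0.48 for Gins1.

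With the combination, 4 of the 40 further G2 and mitosis genes were lower at an unadjusted edgeR p under 0.05 in leukocytes and 0 higher (Pttg1 at -1.14, Cks1b at -0.64, Spc25 at -0.97 and Cks2 at -0.59), beside 7.89% of all genes lower, with a list median of -0.30 beside 0.01 for all genes. Ccnd1, cyclin D1, was at -1.44 with the combination, -1.29 with the TGFBR1 inhibitor and -1.10 with anti-PD-L1, and Rbl2, an RB family repressor, at 0.60, 0.47 and 0.55. These comparisons share the vehicle rats. In epithelial libraries 8 of the 40 had a positive slope on the growth rate at an unadjusted p under 0.05 and 0 a negative one, beside 4.29% of all genes with a positive slope, among them the phosphatase Cdc25b (0.82 ± 0.241) and separase, Espl1 (0.84 ± 0.264).

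By label, the CD45 libraries differed from the DN and Ep libraries in the choice of cyclin. Ccnd2 (2.63 ± 0.605) and Ccnd3 (2.20 ± 0.374) were higher in CD45 and Ccnd1 lower (-3.83 ± 0.571, edgeR adjusted p = 0.00102). Of the 14 G1 genes 3 were higher and 1 lower, of the 15 inhibitors 5 and 1, of the 31 replication genes 2 and 0, and of the 40 further mitotic genes 3 and 1, beside 9.08% of all genes higher and 14.5% lower. The inhibitors higher in CD45 included Rbl2 (2.04), Btg1 (3.05), which restrains division of lymphocytes, and Cdkn1b (2.45), which encodes p27. Cks1b, which assists the removal of p27, was lower in CD45 (-2.18 ± 0.282, edgeR adjusted p = 0.000477).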

How the data were processed

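RNA of sorted tumour fractions was amplified with a SMARTer kit from under 10 ng, per the labels' protocols. The authors deposited whole-number gene counts, and the submitters' processing notes name STAR, FastQC and rn6. Not given in the sources used here are the counting tool, the annotation and the use of strand. The growth rate is a score deposited in the sample table, unit not stated. Of 108 columns, 1 was not matched to the labels and was left out. For rat P22 the columns named for tumours P22T1 and P22T2 differ in number from the samples the labels list for them. They were kept as named, so the pair of P22T2 among the epithelial pairs of the same tumour is uncertain.

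Counts were summed per rat within a class and tested with edgeR 4.0.16 in R 4.3.3 (quasi-likelihood F test, TMM, filterByExpr, Benjamini-Hochberg adjustment over all genes at 0.05); SE was taken as the size of the log2 difference divided by the root of its F statistic, and intervals span 2 SE on each side. CPM in rat comparisons are TMM-scaled. DESeq2 1.42.0, limma 3.58.1 and other settings were alternatives. The replicate is the rat in the treatment and growth rate fits. The growth class fits used 26 leukocyte and 27 epithelial sums, each of 24 rats, and the fit of labelled fractions 13 sums of 12 rats. In these fits, and in the difference between classes, edgeR treated sums of the same rat as independent. Scripts were tested on simulated data. Members, gene lists and settings were chosen with earlier results of these data known. Values were named for Mki67, Top2a, Ccnb1, Cdc20, Mcm2, Pcna and Rrm2, for up to 8 further members and for up to 4 genes per list with the smallest p. The difference between classes, with and without the rat as a block, and 5 relations over rats were added after the data were seen. Promoters come from RefSeq, build GRCr8.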

Additional observations from a re-analysis of the deposited data

Results flagged for a closer look

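In leukocytes of untreated tumours, rat C9 stood above the other 6 rats in 3 mitotic genes. Its level was 79.8 CPM of Top2a, where the others held from 11.1 to 33.4 CPM. It held 71 CPM of Ccnb1 (others 6.79 to 22) and 57.3 CPM of Cdc20 (others 0.101 to 15.7). The neutrophil markers summed to 47940 CPM in the leukocyte library of that rat, the highest of all, and their part in these values was not tested.

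In vehicle leukocytes, rat P7 was the lowest of 8 rats in Mki67, with 7.17 CPM where the others held from 51.7 to 88.3 CPM, and the highest in Pcna, with 807 CPM where the others held from 163 to 433 CPM. In epithelial libraries, rat P26 was the highest of 7 anti-PD-L1 rats in Rrm2, with 61.4 CPM against 1.32 to 21.6 CPM, and rat P4 the highest of 7 vehicle rats in Mki67, with 79.6 CPM against 7.89 to 31.4 CPM. These values stood apart by Dixon's 95% criterion in 7 of 70 groups tested. Its chance rate of 1 in 20 holds for independent groups of normally distributed values. Here it was applied to CPM without a log, and the groups share rats and genes that vary together. The count of 7 therefore cannot be set against that rate.

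All 37 members were detected in both libraries that fell in neither class. Mki67 was at 7.69 CPM in the library of an untreated tumour of rat C5 and at 33.9 CPM in that of a vehicle tumour of rat P6, above the limits of 0.349 and 0.314 CPM that 3 counts give.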

How the results depend on the processing

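Across the alternatives run, no result changed its direction while called. The 0 members called became 1 with DESeq2 for leukocyte combination (Birc5, beside 2.81% of all genes) and for leukocyte stable tumours (Pcna, beside 2.56%), and 1 on the rank of the growth rate in leukocytes (Pcna, beside 0.535%); the cause was not tested. The 3 members called between labelled fractions became 1 with batch as a covariate. Leaving out rats moved that count between 0 and 4 and its mitotic median between -0.30 and 1.10, and the leukocyte stable count between 0 and 1. Pcna there had edgeR adjusted p-values from 0.0444 to 0.807 over the rats left out. The comparison of tumours with glands was not run, since no column of the count table was tied to a gland. No paired analysis was possible because each rat had 1 treatment and the labels share no replicate numbers between treatments. Some rats gave both growth classes or both marker classes, and limma voom with the rat as a block called 0 members in the treatment and growth class comparisons and in the 3 differences between classes. In the epithelial libraries of batch 1 with members at 0, 3 counts are 0.171 to 1.27 CPM. The library with the most, 11, held 17500712 counts, and the library of 2353564 counts had 5. The part of depth in these zeros was not tested.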
